A study of Homo sapiens with 16 samples.

Results

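The genes described here are 39 type I interferon-stimulated genes, listed by name as a module: RNA sensors, antiviral effectors and the signalling factors that drive them. A gene-level probe set carrying only that gene's symbol, current or former, was found for 38 of them, among 18395 genes measured in this way. STAT2 had none and was followed through exon-level probe sets alone. RIGI, formerly DDX58, was found under its older name.

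The series profiled L1236, an established cell line from a human Hodgkin lymphoma, on Affymetrix whole-transcript arrays, to ask what depletion of RELB does to expression; RELB is a transcription factor of the alternative NF-kB pathway. Cells of every group carried a retrovirus with a short hairpin RNA directed at RELB, and were then divided. The arrays labelled induced (n = 4) came from infected cells given doxycycline to switch the hairpin on, and the arrays labelled uninduced (n = 4) came from infected cells without that treatment. Each label holds every combination of a B code (B_4 or B_1) and a last number (4 or 1), and what these stand for is not stated. By the labels, the model is a single cell line. Since nothing states whether the 4 arrays with one label represent separate cultures, a p-value here covers array-to-array spread, and that spread may be technical. Each array has a gene-level and an exon-level summary, and the second adds no replicate.

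Type I interferons are secreted proteins that bind the receptor chains IFNAR1 and IFNAR2 and activate the kinases JAK1 and TYK2. These phosphorylate STAT2, which acts with IRF9 in the complex ISGF3, and ISGF3 binds a promoter element called the interferon-stimulated response element. The genes switched on in this way bind viral RNA, degrade it, modify proteins with ISG15 or block viral entry and release. Several of them, such as RIGI, IRF7 and STAT2, feed back to raise further interferon production or signalling.

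RELB itself did not separate the labels, although it is the gene the hairpin was meant to reduce. It measured 7.22, 7.26, 7.39 and 7.14 log2 units on arrays labelled induced, against 7.23, 7.38, 7.54 and 7.45 on arrays labelled uninduced, where values of a group are in the order B_1 number 1, B_1 number 4, B_4 number 1, B_4 number 4. The groups overlapped, with a difference of -0.15 ± 0.09 (SE; exact permutation p = 0.171, two-sided, where the smallest possible is 0.0286). Groups are therefore called by their labels throughout. Lineage markers did separate the labels, in a comparison where 28.4% of all 13796 tested genes fell and 27.1% rose. Among B-cell markers 3 of 4 tested were higher (CD79A by 5.31, CD22 by 4.11 and PAX5 by 2.76 log2 units) and 0 lower, and of 6 Hodgkin markers TNFRSF8 was higher by 4.70 and IRF4 by 0.75, CCL17 did not pass, while CCL22 fell by 1.75, FSCN1 fell by 1.84 and CD40 fell by 1.74. Mean levels of measured B-cell markers ran from 4.52 to 11.8 in the arrays labelled induced and from 4.49 to 9.05 in those labelled uninduced, and the B-cell marker MS4A1 was below the filter in both. The values thus do not bear out the labels as a depletion of RELB, and neither the labels nor the identity of the cells was tested further. A difference between the labels in the results that follow is a difference between these arrays, and the part of the marker differences in it was not tested. Among markers of other cells, 0 of 1 tested T-cell genes, 1 of 3 myeloid genes (ITGAM, lower by 0.40), 1 of 1 plasmacytoid dendritic cell genes (IL3RA, higher by 2.80, with CLEC4C below the filter) and 1 of 4 fibroblast genes (PDGFRB, higher by 0.59) passed, counts too small to read against the shares of all genes. Arrays of a label correlated at 0.9871 to 0.991 between B codes when labelled induced and at 0.984 to 0.9881 when labelled uninduced. Within a B code the uninduced arrays correlated at 0.9942 to 0.9949, so those 4 arrays may hold fewer than 4 independent units.

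The response element that ISGF3 reads was looked for in the promoters first, because it is the sequence that members of this module share by function. RefSeq promoter windows (GRCh38.p14, 250 bases before to 50 bases after each start) were at hand for 31 of the 39 genes. DHX58, IRF7, IFIT2, OAS2, OASL, MX2, USP18 and TRIM22 were not matched. The element was searched on both strands as GAAA, then NN, then GAAA, where N is any base, so that a match on the other strand reads TTTC, NN, TTTC. It was present in at least 1 window of 22 of the 31 genes (71%), against 4.38% of all 27305 genes in the table. The STAT-dimer element TTCNNNGAA, also searched on both strands, was present in 10 of the 31 (32.3%), against 9.38% of all genes. A match describes letters only and shows no binding.

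The upstream window of IFI44L, the member with the largest difference, is shown whole because it holds the element a pair of times inside a repeated stretch. It lies outside the gene at chr1:78620198-78620447 on the plus strand, and the capitals mark both matches, which begin 164 and 73 bases before the start.
IFI44L: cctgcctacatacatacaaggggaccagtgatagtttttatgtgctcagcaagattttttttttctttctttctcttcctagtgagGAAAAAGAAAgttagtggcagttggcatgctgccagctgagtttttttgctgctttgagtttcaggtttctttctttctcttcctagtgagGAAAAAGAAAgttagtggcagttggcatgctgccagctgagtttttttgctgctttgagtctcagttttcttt

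Stretches of 30 bases around the element are shown next for genes that differed most in their response: MX1 and PARP9 with the next largest falls, ISG20 with the only rise that passed, IFI27 with almost no difference, and the adjacent pair IFIT1 and IFIT5, which was chosen after its values were seen. Capitals mark the element on either strand. They lie at chr21:41420559-41420588 (plus, just past the start), chr3:122564322-122564351 (minus, 41 bases before the start), chr15:88638937-88638966 (plus, 69 bases before), chr14:94110625-94110654 (plus, 108 and 95 bases before), chr10:89392504-89392533 (plus, 116 and 103 bases before) and chr10:89414547-89414576 (plus, 19 and 4 bases before).
MX1: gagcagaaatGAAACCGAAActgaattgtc
PARP9: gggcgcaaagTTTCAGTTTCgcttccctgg
ISG20: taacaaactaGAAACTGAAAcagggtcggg
IFI27: cagTTTCGGTTTCctgGAAAATGAAAccta
IFIT1: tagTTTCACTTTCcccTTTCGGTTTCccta
IFIT5: agTTTCGATTTCttaagTTTCAGTTTCtga

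The element was therefore found in genes that fell and in genes that did not. It was present in 15 of the 21 genes in the table that fell, in ISG20, in 3 of the 4 that did not pass and in 3 of the 4 below the filter. CMPK2, which did not differ, had no match in any of its 3 windows.

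Across the module, most members were lower on the arrays labelled induced. The RNA is from bulk cells, so fewer cells expressing a gene and less RNA per cell cannot be told apart. Of 33 members that passed a filter on low signal (a mean of at least 4.78 log2 units over the 8 arrays, the 25th percentile), 27 fell at an adjusted p under 0.05 (limma), while 28.4% of all 13796 tested genes fell. ISG20 rose, against 27.1% of all tested genes, and CMPK2, IFI27, SAMD9, IFIT5 and USP18 did not pass. Of the members that fell, 7 (IFI44L, IFI44, PARP9, IFIT2, IFIT1, IFIT3 and EPSTI1) had a mean under 4.78 on the arrays labelled induced and passed the filter through the uninduced arrays, so they had to differ to be tested. No detection call was used here, so their differences are given in log2 units as measured. DDX60, HERC5, HERC6, MX2 and RSAD2 were below the filter and entered no test. With all 18395 genes tested, 29 members fell (22.9% of all genes) and 1 rose (21.7%), since DDX60, HERC5 and MX2 were added and IRF7 was lost. All 4 arrays labelled induced lay below all 4 labelled uninduced in 27 of the 38 members, a pattern that 21.1% of all 18395 genes showed, and above them in 1, which 20% of all genes showed. Of the 13796 tested genes, 25.6% had all arrays labelled induced below and 24.2% above. The same 27 members were lower in all 4 pairs of arrays with the same B code and last number. Groups that do not overlap must give that result, so it adds no support.

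The falls were large as well as frequent. The median difference, labelled induced minus labelled uninduced, was -1.12 log2 units over the 38 members and 0.03 over all 18395 genes. At least a 2-fold fall was measured in 20 members, against 7.64% of all genes, at least a 4-fold fall in 9 (2.84% of all genes) and at least an 8-fold fall in 7 (1.34%). At least a 16-fold fall was measured in 4 members, IFI44L, MX1, PARP9 and IFI44, against 0.685% of all genes.

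**Figure D1:**
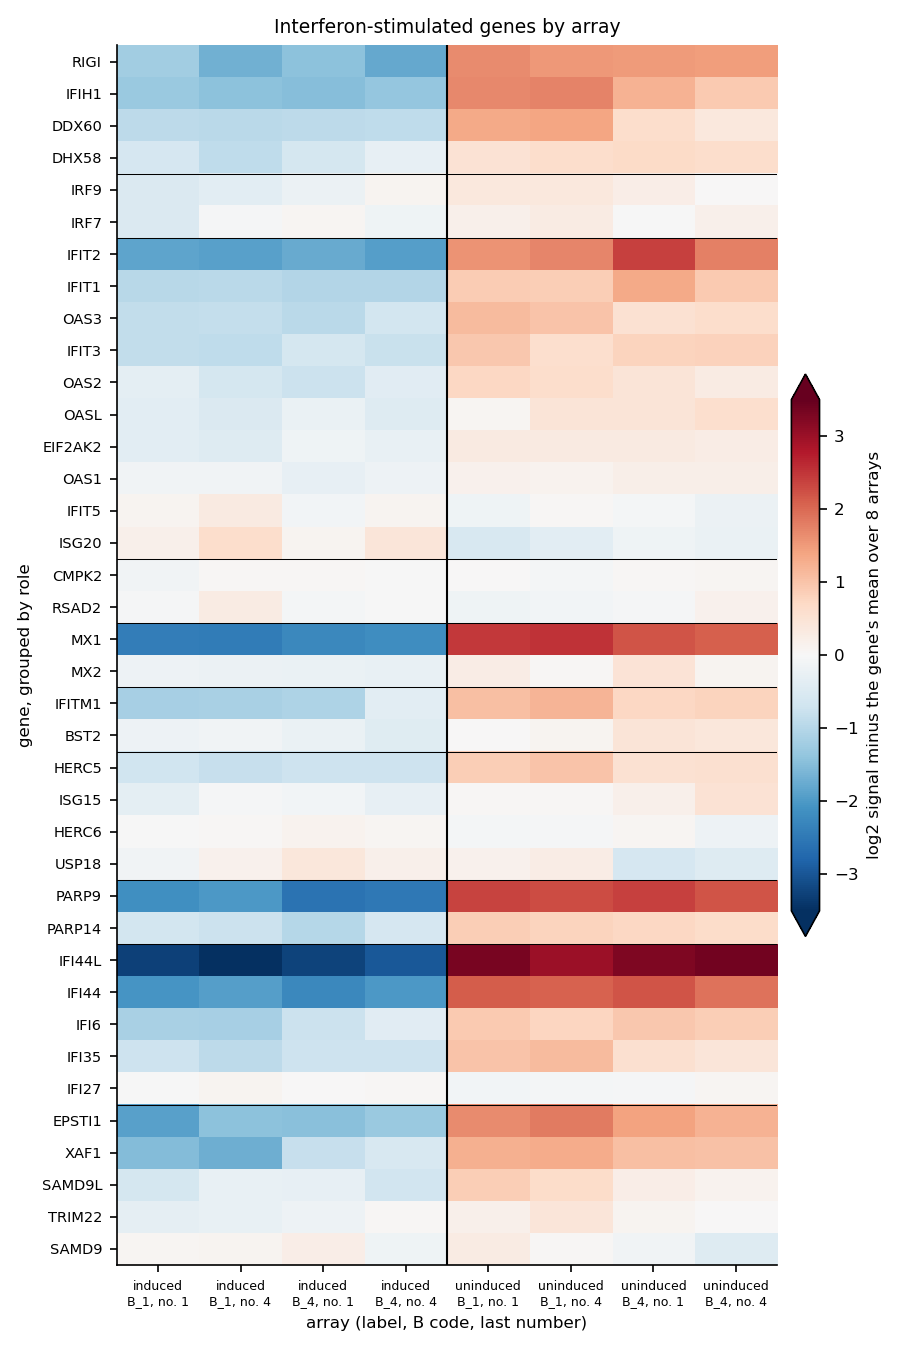
Log2 signal of each of the 38 genes on each of the 8 arrays, after subtracting the gene's own mean over the 8 arrays, with genes in rows grouped by role and arrays in columns. Blue fills the 4 columns labelled induced for most genes, palely where the difference is small. IRF7, IRF9 and TRIM22 each have an array labelled induced above their mean. ISG20, IFIT5, CMPK2, RSAD2, HERC6, USP18, IFI27 and SAMD9 do not show that pattern.

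**Figure D2:**
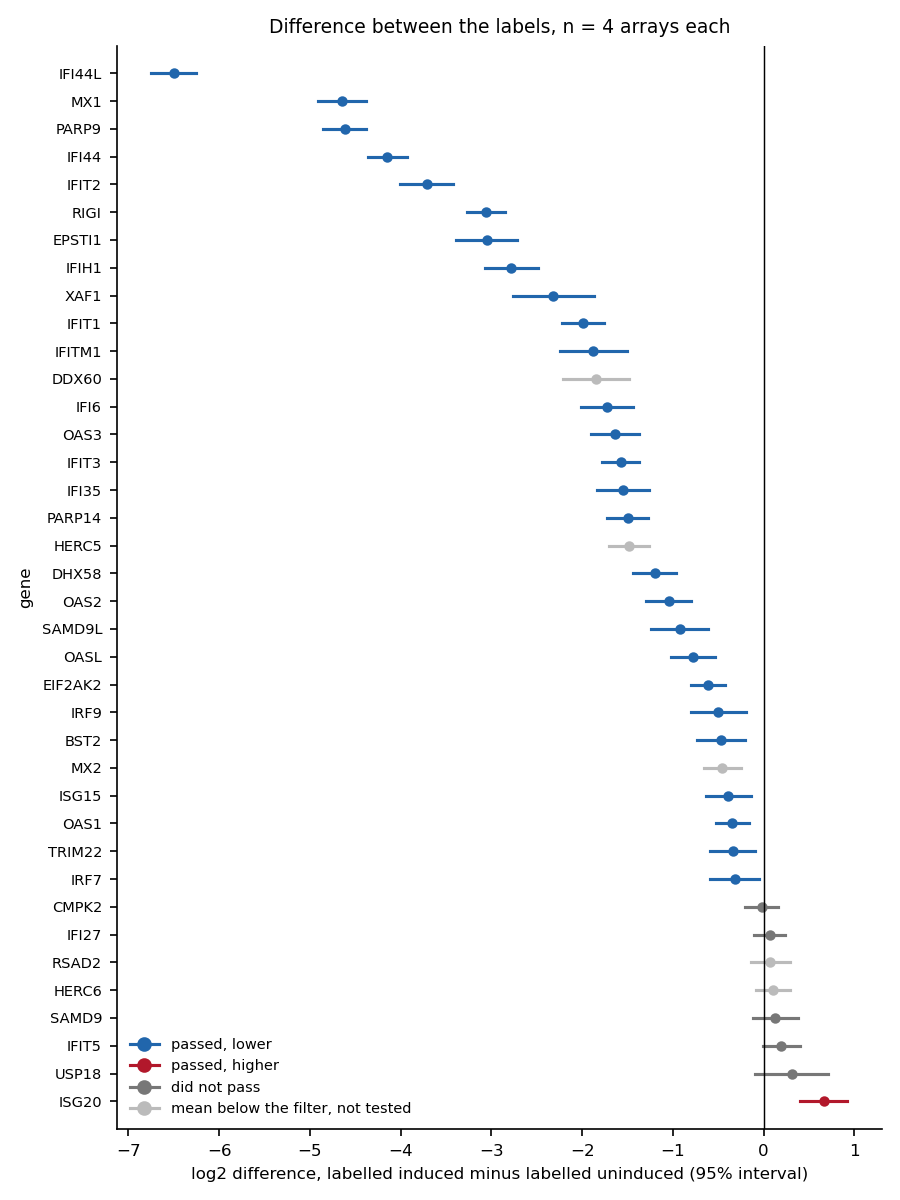
Difference of each gene between the labels (points, log2 units) with its 95% interval from limma (lines), ordered by size, n = 4 arrays per label. Values ran from -6.50 for IFI44L to 0.66 for ISG20, and the colours separate genes that passed, did not pass or were below the filter.

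Among the RNA sensors, the 3 tested members fell, against 28.4% of all tested genes, a count too small to read against that share. RIGI, which detects short double-stranded and triphosphorylated RNA in the cytosol, measured 5.76, 5.28, 5.54 and 5.18 on arrays labelled induced, against 8.62, 8.50, 8.47 and 8.42 on arrays labelled uninduced. The groups were far apart, and RIGI fell by 3.06 ± 0.09 log2 units (SE), or 8.34-fold (adjusted p = 6.81e-10). IFIH1, also called MDA5, which detects long double-stranded RNA, measured 6.72, 6.58, 6.54 and 6.68 on arrays labelled induced, against 9.71, 9.76, 9.24 and 8.94 on arrays labelled uninduced. Its 4 arrays labelled induced were nearly level, whereas the uninduced arrays were lower for B_4 than for B_1. IFIH1 fell by 2.78 ± 0.13, or 6.86-fold (adjusted p = 2.17e-08). DHX58, or LGP2, which tunes signalling by the other sensors, fell by 1.20 ± 0.11 (adjusted p = 3.42e-06). The helicase DDX60 was below the filter at 3.21, 3.18, 3.21 and 3.24 on arrays labelled induced, against 5.46, 5.50, 4.75 and 4.49 on arrays labelled uninduced. Its groups did not overlap, with a difference of -1.84.

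The signalling factors had small differences. IRF9, the DNA-binding part of ISGF3, fell by 0.50 ± 0.14 (adjusted p = 0.00996), at 7.41 ± 0.25 on arrays labelled induced and 7.91 ± 0.18 on arrays labelled uninduced (SD, n = 4 each), with overlapping groups. IRF9 fell by 0.81 ± 0.14 in B_1 arrays (adjusted p = 0.000629) and did not pass in B_4 arrays at -0.18 ± 0.14 (adjusted p = 0.320). The test of that contrast between B codes did not pass (adjusted p = 0.226). IRF7, which drives interferon-alpha genes, fell by 0.32 ± 0.12 (adjusted p = 0.0470) with overlapping groups. Its adjusted p was 0.0546 when all 18395 genes were tested and 0.0602 to 0.170 without 6 of the 8 arrays in turn, while IRF7 exon-level probe sets averaged a difference of -0.56. STAT2, the remaining ISGF3 subunit in the module, had 22 exon-level probe sets, of which 4 of 21 tested fell and 0 rose, against 17.5% and 17.9% of all tested probe sets, so the number that fell is near the background.

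The effectors that bind or cut RNA included the member that rose, with 8 of 10 lower, 1 higher and 1 not passing (28.4% of all tested genes were lower and 27.1% higher). IFIT2 binds viral RNA as a partner of IFIT1 and IFIT3. It measured 3.76, 3.72, 3.86 and 3.68 on arrays labelled induced, against 7.19, 7.32, 7.999 and 7.37 on arrays labelled uninduced. The groups were far apart, and IFIT2 fell by 3.71 ± 0.13 (adjusted p = 2.21e-09). IFIT1 fell by 1.99 ± 0.10 and IFIT3 by 1.57 ± 0.09. These values depended on the summary, since the means of exon-level probe sets differed by -2.35 for IFIT2, -0.57 for IFIT1 and -0.76 for IFIT3.

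IFIT5, which lies next to IFIT1 on chromosome 10 with no protein-coding gene between them, did not follow. It measured 6.55, 6.78, 6.36 and 6.55 on arrays labelled induced, against 6.32, 6.50, 6.38 and 6.25 on arrays labelled uninduced. The groups overlapped, and the difference was 0.20 ± 0.09 (adjusted p = 0.0867, 95% interval -0.002 to 0.40). Without the uninduced B_4 number 1 array, the difference was 0.27 and passed (adjusted p = 0.0367).

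The oligoadenylate synthetases, which activate the ribonuclease RNase L, fell unequally. OAS3 fell by 1.64 ± 0.12, OAS2 by 1.04 ± 0.11 and OAS1 by 0.34 ± 0.08 (adjusted p = 7.23e-07, 1.36e-05 and 0.00399), and these 3 genes adjoin one another on chromosome 12. OASL, a relative that lacks that enzyme activity and aids RIGI signalling, fell by 0.78 ± 0.11. EIF2AK2, the kinase PKR that halts translation when it binds double-stranded RNA, fell by 0.61 ± 0.08. ISG20, an exonuclease that degrades RNA, was the exception in the other direction. It measured 8.01, 8.46, 7.95 and 8.27 on arrays labelled induced, against 7.27, 7.46, 7.69 and 7.62 on arrays labelled uninduced. All 4 arrays labelled induced lay above the others, and ISG20 rose by 0.66 ± 0.12, or 1.58-fold (adjusted p = 0.000559).

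The nucleotide effectors CMPK2 and RSAD2, neighbours on chromosome 2, did not differ beyond the spread. CMPK2, a mitochondrial nucleotide kinase, measured 5.44, 5.60, 5.61 and 5.56 on arrays labelled induced, against 5.59, 5.48, 5.61 and 5.62 on arrays labelled uninduced. The groups overlapped, with a difference of -0.02 ± 0.08 (adjusted p = 0.857, 95% interval -0.20 to 0.16). RSAD2, or viperin, which makes a chain-terminating nucleotide, was below the filter at 4.06, 4.40, 4.03 and 4.08 on arrays labelled induced, against 3.96, 4.01, 4.06 and 4.25 on arrays labelled uninduced. Its groups overlapped too, with a difference of 0.08.

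The GTPases of the Mx family gave very different values. MX1, which blocks influenza and other RNA viruses, measured 5.12, 5.08, 5.28 and 5.34 on arrays labelled induced, against 9.99, 10.06, 9.73 and 9.62 on arrays labelled uninduced. No array came near the other group, and MX1 fell by 4.65 ± 0.12, or 25.1-fold (adjusted p = 1.60e-10). MX2, its neighbour on chromosome 21 and a restriction factor for HIV, was below the filter at 4.55, 4.50, 4.48 and 4.45 on arrays labelled induced, against 4.99, 4.77, 5.21 and 4.82 on arrays labelled uninduced. Its groups did not overlap, with a difference of -0.45.

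Both of the 2 membrane effectors fell, against 28.4% of all tested genes, a count too small to read against that share. IFITM1, which hinders fusion of viruses with the cell, fell by 1.88 ± 0.17 (adjusted p = 3.26e-06), although it has near-identical relatives and its probe assignment is uncertain to that extent. BST2, or tetherin, which holds budding virions at the surface, fell by 0.47 ± 0.12 (adjusted p = 0.00584). They differed by B code in opposite ways. IFITM1 differed by -2.27 in B_1 and -1.48 in B_4 arrays. BST2 differed by -0.75 in B_4 arrays and did not pass in B_1 arrays at -0.20 (adjusted p = 0.199). The test of the label difference between B codes passed for neither (adjusted p = 0.199 for IFITM1 and 0.207 for BST2).

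In the ISG15 system the modifier, its ligases and its protease gave different values. ISG15, the ubiquitin-like modifier, fell by 0.39 ± 0.11 (adjusted p = 0.0126), at 6.64 ± 0.15 on arrays labelled induced and 7.03 ± 0.22 on arrays labelled uninduced (SD, n = 4 each). Without the uninduced B_4 number 4 array its adjusted p was 0.0554. HERC5, the human ISG15 ligase, was below the filter at 3.86, 3.73, 3.81 and 3.81 on arrays labelled induced, against 5.41, 5.53, 5.09 and 5.12 on arrays labelled uninduced. These groups did not overlap, with a difference of -1.49. HERC6, which adjoins HERC5 on chromosome 4 and serves as the ISG15 ligase in the mouse, was below the filter at 3.76, 3.80, 3.89 and 3.82 on arrays labelled induced, against 3.71, 3.72, 3.85 and 3.59 on arrays labelled uninduced. HERC6 was higher in all 4 pairs, yet the groups overlapped and the difference was 0.10.

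USP18, the protease that removes ISG15 and restrains receptor signalling, measured 8.39, 8.66, 8.90 and 8.70 on arrays labelled induced, against 8.66, 8.77, 7.93 and 8.06 on arrays labelled uninduced. The groups overlapped because the uninduced B_1 arrays were as high as the induced ones, and the difference was 0.31 ± 0.18 (adjusted p = 0.178, 95% interval -0.09 to 0.71). It ran from 0.11 (without the induced B_4 number 1 array) to 0.48 (without the induced B_1 number 1 array, where it passed with adjusted p = 0.0418), and the mean of exon-level probe sets differed by 0.10. USP18 has a near-identical copy in the genome, so its level is uncertain to that extent.

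The ADP-ribosylation enzymes PARP9 and PARP14 both fell, with a pair of protein-coding genes between them on chromosome 3. PARP9 acts in interferon signalling as a complex with the ubiquitin ligase DTX3L. It measured 4.08, 4.20, 3.64 and 3.73 on arrays labelled induced, against 8.59, 8.49, 8.60 and 8.43 on arrays labelled uninduced. The groups were far apart, with a fall of 4.62 ± 0.11 (adjusted p = 9.63e-11). PARP14 fell by 1.497 ± 0.10 (adjusted p = 3.56e-07).

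The IFI-named genes held the largest fall of the module. IFI44L measured 3.89, 3.64, 3.90 and 4.19 on arrays labelled induced, against 10.49, 10.16, 10.43 and 10.54 on arrays labelled uninduced. The arrays labelled induced all lay under 4.78, the lowest mean of a tested gene, where RMA compresses signals. IFI44L fell by 6.50 ± 0.11 log2 units (adjusted p = 1.69e-11). Its neighbour IFI44, on chromosome 1, measured 3.38, 3.49, 3.17 and 3.41 on arrays labelled induced, against 7.55, 7.51, 7.63 and 7.35 on arrays labelled uninduced. These groups were also far apart, with a fall of 4.15 ± 0.10 (adjusted p = 1.00e-10).

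The mitochondrial protein IFI27 stood apart from these. It measured 5.80, 5.91, 5.83 and 5.87 on arrays labelled induced, against 5.71, 5.76, 5.78 and 5.88 on arrays labelled uninduced. The groups overlapped, and the difference was 0.07 ± 0.08 (adjusted p = 0.484, 95% interval -0.10 to 0.24). IFI6, an interferon-induced membrane protein, measured 7.07, 7.03, 7.45 and 7.81 on arrays labelled induced, against 9.12, 8.94, 9.14 and 9.05 on arrays labelled uninduced, and it fell by 1.72 ± 0.13 (adjusted p = 7.55e-07). Its induced arrays were higher for B_4 than for B_1, and the groups did not overlap. IFI35 fell by 1.55 ± 0.13 (adjusted p = 2.12e-06).

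Of the remaining members, 4 of 5 fell, against 28.4% of all tested genes, a count too small to read against that share. EPSTI1 measured 3.97, 4.42, 4.39 and 4.56 on arrays labelled induced, against 7.52, 7.69, 7.27 and 7.07 on arrays labelled uninduced. The groups did not overlap, and EPSTI1 fell by 3.05 ± 0.15 (adjusted p = 3.06e-08). XAF1, a pro-apoptotic partner of the caspase inhibitor XIAP, fell by 2.32 ± 0.20 (adjusted p = 2.92e-06), and TRIM22, an antiviral ubiquitin ligase, by 0.34 ± 0.11 with overlapping groups (adjusted p = 0.0253, and 0.0809 to 0.107 without 4 of the 8 arrays in turn).

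SAMD9L fell while its neighbour SAMD9 on chromosome 7 did not; both are antiviral proteins that restrain cell growth. SAMD9L fell by 0.93 ± 0.14 (adjusted p = 0.000218). SAMD9 measured 7.58, 7.61, 7.74 and 7.37 on arrays labelled induced, against 7.78, 7.56, 7.39 and 7.05 on arrays labelled uninduced. Its groups overlapped, with a difference of 0.13 ± 0.11 (adjusted p = 0.358, 95% interval -0.12 to 0.38).

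**Figure D3:**
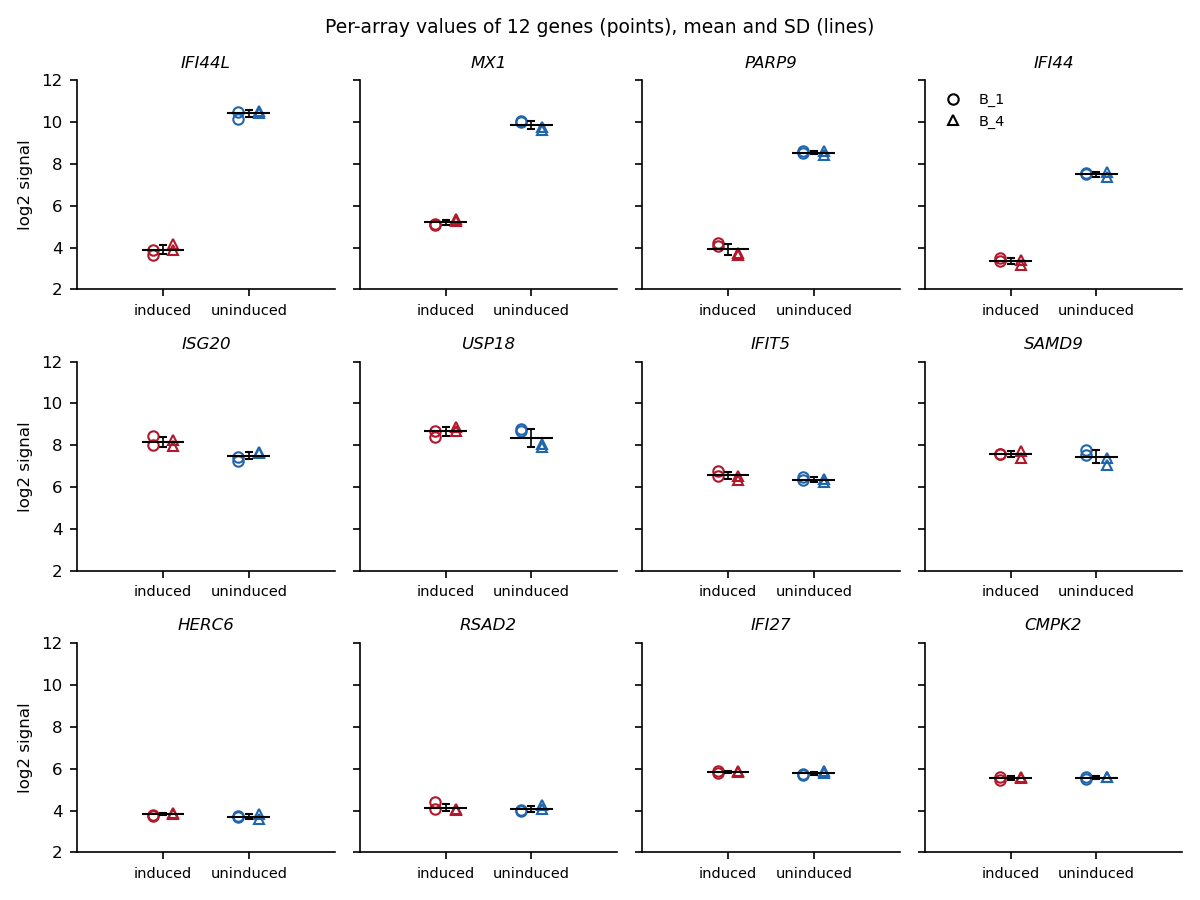
Log2 signal on every array for the 4 genes with the largest falls (upper row) and the 8 genes that fell neither with nor without the filter on low signal, arrays labelled induced on the left and labelled uninduced on the right of each panel. Circles are B_1 arrays, triangles B_4 arrays, and lines give the mean and SD of 4 arrays; the upper genes separate fully, and USP18 shows the B_4 uninduced arrays below the rest.

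The difference between the labels was also fitted within each B code. In B_4 arrays 24 members fell and 2 rose (23.7% and 22.6% of all tested genes), and in B_1 arrays 24 fell and 1 rose (25.5% and 23.2%). The members that fell were not all the same. OAS1, BST2 and ISG15 fell in B_4 arrays and did not pass in B_1 arrays (adjusted p = 0.0733 to 0.201). IRF7, IRF9 and TRIM22 fell in B_1 arrays and did not pass in B_4 arrays (adjusted p = 0.320 to 0.545). The test of the label difference between B codes passed for none of these members (adjusted p = 0.207 to 0.733). IFI44L differed by -6.44 in B_4 and -6.56 in B_1 arrays, and IFI44 by -4.20 in B_4 and -4.09 in B_1. ISG20 rose in both, by 0.46 in B_4 and 0.87 in B_1 arrays. USP18 rose in B_4 arrays by 0.81 ± 0.13 (adjusted p = 0.000557) and did not pass in B_1 arrays at -0.19 ± 0.13 (adjusted p = 0.275). The test of that contrast between B codes gave 0.99 ± 0.19 for USP18 and did not pass (adjusted p = 0.0678), though it passed under 4 other settings (adjusted p = 0.0180 to 0.0495).

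XAF1 was the member called when dependence of the label difference on B code was tested as an interaction. XAF1 measured 6.46 and 6.70 on the B_4 arrays labelled induced and 5.75 and 5.56 on the B_1 arrays labelled induced. On arrays labelled uninduced it measured 8.34 and 8.29 for B_4, against 8.53 and 8.57 for B_1. The B_4 values were the higher on arrays labelled induced and the lower on arrays labelled uninduced, where their difference of -0.24 ± 0.13 did not pass (adjusted p = 0.337). XAF1 fell by 1.73 ± 0.13 in B_4 arrays and by 2.90 ± 0.13 in B_1 arrays, an interaction of 1.17 ± 0.18 (adjusted p = 0.0372). Among all tested genes, 0.21% were called in that direction and 0.087% in the other. The call was lost without 6 of the 8 arrays in turn, with adjusted p of 0.0946 to 0.248. It was also lost under quantile normalisation and with means of exon-level probe sets (adjusted p = 0.0530 to 0.0599).

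B code alone, averaged over the labels, changed no member at the threshold, and 0 of 13796 genes (limma; 1911 at an unadjusted p under 0.05, and 0 to 65 genes when 1 array was left out). The members with the lowest p were IFIH1 at -0.35 ± 0.13, IFI6 at 0.32 ± 0.13, PARP9 at -0.24 ± 0.11 and SAMD9 at -0.24 ± 0.11, B_4 minus B_1. Their adjusted p ran from 0.303 to 0.369. When 1 array was left out, IFIH1 ran from -0.47 to -0.21, IFI6 from 0.17 to 0.43, PARP9 from -0.33 to -0.15 and SAMD9 from -0.36 to -0.16. The last number also changed 0 members and 0 genes (971 at an unadjusted p under 0.05), and its interaction with the label 0 and 0 (407 at an unadjusted p under 0.05).

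Within a label, B code did separate some members. On arrays labelled uninduced, USP18 was lower in B_4 than in B_1 by 0.73 ± 0.13 (adjusted p = 0.0246), IFIH1 by 0.65 ± 0.13 (adjusted p = 0.0344) and IFI35 by 0.56 ± 0.12 (adjusted p = 0.0402). These 3 members compare with 2.09% of all tested genes lower in B_4 in that contrast. All 3 calls were lost without any 1 of the 4 uninduced arrays. DDX60, below the filter, differed more on arrays labelled uninduced, at -0.86 ± 0.12 (B_4 minus B_1). It passed in limma when all 18395 genes were tested (adjusted p = 0.00944). On arrays labelled induced, 0.0217% of all tested genes were called higher in B_4 and 0.0435% lower. XAF1 was higher in B_4 there by 0.92 ± 0.13 (adjusted p = 0.0486). Its adjusted p was 0.0501 when all 18395 genes were tested, and the call was lost without any 1 of the 8 arrays (adjusted p = 0.0540 to 0.198).

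**Figure D4:**
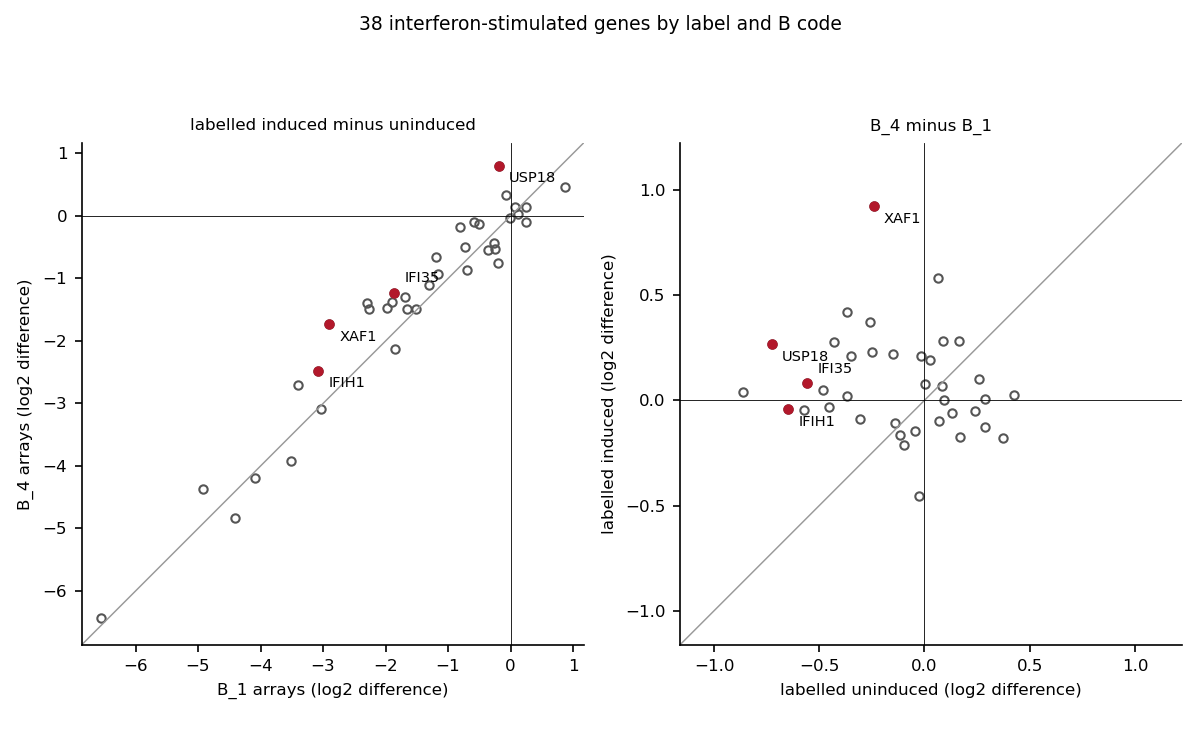
Left, log2 difference between the labels in B_4 arrays (vertical) against B_1 arrays (horizontal) for the 38 genes. Right, B_4 minus B_1 on arrays labelled induced (vertical) against arrays labelled uninduced (horizontal), with the diagonal marking equal values. Genes lie near the diagonal on the left, and XAF1, USP18, IFIH1 and IFI35, filled red, are those named in the text.

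Exon-level probe sets gave the same arrays at finer grain. The 39 members had 466 single-symbol probe sets, of which 356 passed the filter. Of these, 225 fell, 7 rose and 124 did not pass, while 17.5% of all 168240 tested probe sets fell and 17.9% rose. Some that fell passed the filter through the uninduced arrays, so they had to differ to be tested. A DDX60 probe set, for instance, averaged 2.92 on arrays labelled induced and 7.90 on arrays labelled uninduced. How many of the 225 were of this kind was not counted. At least 1 probe set fell in 29 members. In 9 members every tested probe set fell (EPSTI1, IFI35, IFI44, IFI44L, IFIH1, IFIT1, IFIT2, IFITM1 and PARP9), although IFIT1 had only 1 tested. The shares of all genes with at least 1 or with every tested probe set lower were not computed. Neither count of members can therefore be read against a background. IFI44L had 11 of 11 lower, with differences of -7.67 to -1.25, and PARP9 had 10 of 10 lower.

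In BST2, CMPK2, HERC6, IFI27, IFIT5, RSAD2, SAMD9 and USP18 no probe set passed in either direction. BST2, the member of these that fell at gene level, had all 6 probe sets below 0. ISG20 had 3 of 7 higher. A single probe set rose in OAS1 (by 1.41), RIGI (by 1.25), TRIM22 (by 1.94) and XAF1 (by 0.70) while other probe sets of OAS1, RIGI and XAF1 fell. The TRIM22 probe set measured 8.26, 8.78, 7.17 and 8.10 on arrays labelled induced, against 6.37, 6.36, 4.92 and 6.88 on arrays labelled uninduced. Its arrays labelled induced all lay above the others, against the fall of the TRIM22 gene-level value, and the mean of TRIM22 exon-level probe sets differed by -0.10 and did not pass (adjusted p = 0.372). Over 38 members, the mean of exon-level probe sets had the sign of the gene-level value in 36, the others being CMPK2 and SAMD9.

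**Figure D5:**
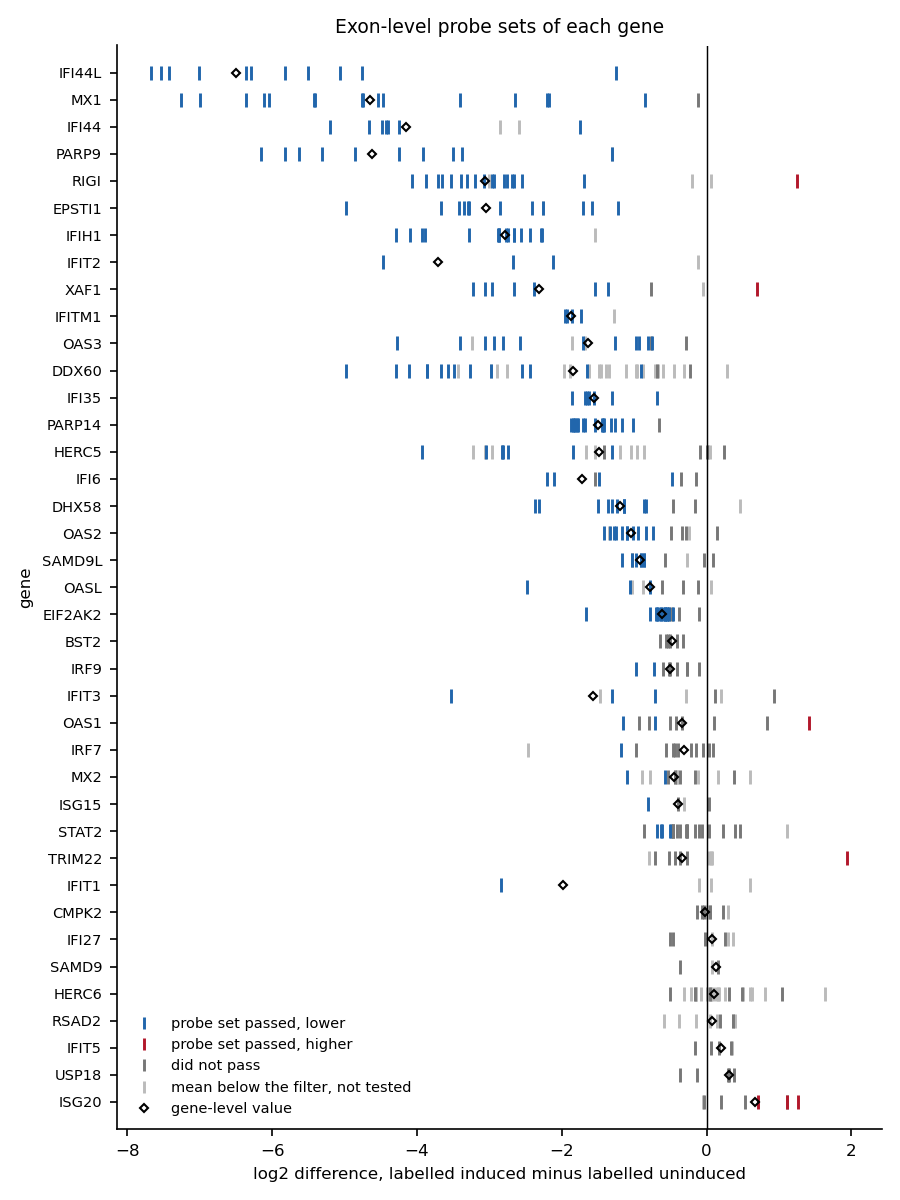
Difference between the labels (log2 units, horizontal) of every exon-level probe set (ticks) of the 39 genes, with the gene-level value as a diamond where there is one, ordered by the median probe set. Ticks of IFI44L run from -7.67 to -1.25, and the red ticks are the 7 probe sets that rose.

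Other steps of the interferon pathway, taken as lists of genes chosen with earlier results of these data known, are read against the 27.1% of all tested genes that rose and the 28.4% that fell. Of 15 measured ligand genes, 11 were below the filter; of the 4 tested, 0 fell, IFNA13 rose by 0.25 ± 0.09 (adjusted p = 0.0325) and IFNL2 and IFNL3 differed by 0.15 and -0.14 without passing. Interferon-alpha genes are near-identical copies, so which of them the IFNA13 probe set reads is uncertain. Among 8 receptor chains and receptor kinases, 6 rose and 0 fell (27.1% and 28.4% of all tested genes), with a median difference of 0.81. JAK1, which phosphorylates the STATs, rose by 2.04 ± 0.10 (adjusted p = 3.64e-08), the receptor chain IFNAR2 by 1.62 ± 0.10 (adjusted p = 2.00e-07) and IL10RB, shared with interferon-lambda signalling, by 1.04 ± 0.08 (adjusted p = 1.26e-06).

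Of 7 interferon-regulatory and STAT factors outside the module, 5 rose and 2 fell, against 27.1% and 28.4% of all tested genes. IRF8 rose by 1.47 ± 0.10 and IRF2, which can repress interferon targets, by 1.25 ± 0.10, whereas IRF5, which acts below Toll-like receptors, fell by 0.86 ± 0.08. Among 12 tested genes of nucleic acid sensing, 7 rose and 2 fell (27.1% and 28.4% of all tested genes). The adaptor TRAF3 rose by 1.83 ± 0.11, the kinase IKBKE by 2.51 ± 0.17 and the DNA sensor IFI16 by 1.22 ± 0.14. The negative regulators were divided, with 3 lower and 3 higher of 7 (28.4% and 27.1% of all tested genes): SOCS1, which blocks JAK kinases, fell by 2.57 ± 0.12 (adjusted p = 1.31e-08), SOCS3 fell by 1.02 ± 0.12 and the phosphatase PTPN11 rose by 1.09 ± 0.08.

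Interferon-inducible genes outside the module were also measured. Of 28 tested, 15 fell and 5 rose, against 28.4% and 27.1% of all tested genes, and 8 did not pass, with a median difference of -0.44. DTX3L, the partner of PARP9, measured 4.21, 3.94, 3.88 and 4.13 on arrays labelled induced, against 8.92, 8.76, 8.64 and 8.51 on arrays labelled uninduced. Its groups were far apart, with a fall of 4.67 ± 0.10 (adjusted p = 6.04e-11), and its mean on arrays labelled induced, 4.04, was under the filter like that of PARP9. GBP5, a guanylate-binding protein, fell by 3.42 ± 0.12 and PARP12 by 3.31 ± 0.12. The 5 that rose were LY6E (by 1.30), GBP3 (by 0.86), SP140 (by 0.83), GBP4 (by 0.82) and TRIM5 (by 0.54). Guanylate-binding proteins thus went both ways, since GBP2 fell by 2.52. GBP5 and GBP2 also had means under the filter on arrays labelled induced, at 4.33 and 4.21. GBP3 had a mean under it on arrays labelled uninduced, at 4.40. Like DTX3L, these genes passed the filter through 1 label alone, so they had to differ to be tested.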

How the data were processed

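RNA was extracted, labelled and hybridised by the authors. The deposited values are signals on a log2 scale: the submitters' processing notes name RMA and Partek but no versions, and base 2 was inferred from the usual output of RMA. No source used here gives the genome build or the annotation. RMA equalises the arrays and compresses dim signals, and 4 arrays per label limit the precision.

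The probe set with the highest mean stood for each of 18395 genes with a single-symbol probe set, and 13796 genes above the 25th percentile were tested. Symbols were updated with RefSeq (GRCh38.p14), which also gave promoter sequences and gene neighbours. Log2 values of 8 arrays were modelled by B code, last number and label in limma 3.58.1 (R 4.3.3). P-values were adjusted by Benjamini and Hochberg's method over every tested gene, with calls under 0.05, and interactions were fitted separately. RELB was also tested by exact permutation. The software included Python 3.11.15, matplotlib 3.10.9 and the R package data.table, version 1.17.8.

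The members and gene lists were chosen with earlier results of these data known. All members are named. Values per array are given for the 8 largest differences and for members that rose, did not pass or were below the filter. They are also given for the 4 lowest p for B code and for any member with an interaction. The 3 lowest p are named from each pathway list. From the interferon-inducible genes outside the module, GBP2 and the genes that rose are named as well. All 4428 features found in both summaries had identical values, so exon-level values are not extra replicates. Arrays with the same B code and last number did not deviate together (correlations of deviations from the group means between -0.02057 and 0.1582), so the numbers were not taken to pair the samples. Scripts were tested on simulated data. The settings varied were the filter, normalisation, centring, gene summary, variance model and covariates, the pair as a block, and each array in turn left out.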

Additional observations from a re-analysis of the deposited data

Results flagged for a closer look

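In 76 groups of 4 arrays (38 genes in each label) 4 held an array apart from the other 3 by Dixon's test, where chance gives about 1 in 20. IFITM1 was high on the induced B_4 number 4 array at 8.91, against 8.12 to 8.22 on the other induced arrays. IFI35 was low on the induced B_1 number 4 array at 8.004, against 8.19 to 8.21. RSAD2 was high on that same induced array at 4.40, against 4.03 to 4.08, at a level below the filter. IFIT1 was high on the uninduced B_4 number 1 array at 6.30, against 5.85 to 5.89 on the other uninduced arrays. The XAF1 difference between the labels was smaller in B_4 than in B_1 arrays, with an interaction of 1.17.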

How the results depend on the processing

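With the filter at the median, 17 members fell, and 15 within each of B_4 and B_1. Fewer genes were tested there. The number of members tested and the share of all genes that fell are not given, so these counts cannot be read against a background. The replicate block (the pair of arrays with the same B code and last number) left 27 members lower and 1 higher, with 3769 genes lower and 3567 higher in all, and not every array correlated best with its own number. For the interaction of label and B code, 1 member became 0 under quantile normalisation and exon-level means, and 2 under the median filter, median centring, trend with robust fitting and no last number, USP18 being added with adjusted p of 0.0180 to 0.0495. Its 41 genes became 65 under median centring, 174 with trend and robust fitting and 26 from exon-level means. For B code within uninduced arrays, median centring gave 473 genes and 5 members lower, trend and robust fitting 561 lower and 254 higher, and exon-level means 139 lower, 1 member lower and 62 higher; the last number then gave 1 gene. From exon-level means CMPK2 turned to 0.0489 and SAMD9 to -0.0435. The causes were not tested.

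When 1 array was left out, members lower ran from 25 to 27 and higher from 1 to 2. Among all tested genes, the number lower ran from 3548 to 3820 and the number higher from 3384 to 3586. CMPK2 ran from -0.0609 to 0.0163, and RELB from -0.21 to -0.10. Genes called for B code ran from 0 to 65 (65 without the induced B_4 number 4 array), for its interaction from 3 to 33 with 0 to 1 members, and for the interaction with last number from 0 to 3. For B code within uninduced arrays, 1 to 432 genes were lower, 0 to 146 higher and 0 to 4 members lower. IRF7 missed the threshold without 6 of the 8 arrays (adjusted p 0.0602 to 0.170), and TRIM22 without 4 (0.0809 to 0.107). Dim signals limit RSAD2, HERC6, MX2, DDX60 and HERC5.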
